A study of Mus musculus with 2 samples.

Results

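The genes described here are 6 microRNA (miRNA) genes known from white blood cells and from inflammation, taken from 2202 miRNA genes counted in mouse heart. They were listed by name from what is known of them, with no threshold on their values, at a time when earlier results of these libraries were known. Mir150, Mir342 and Mir155 were listed for lymphocytes, Mir223 for myeloid cells, and Mir146 and Mir146b for the response to the transcription factor NF-kB. All 6 were matched by name in the annotation, and their places are given in the mouse build GRCm38 (mm10). The heart tissue came from male mice of the hybrid strain B6CASTF1/J, a cross of C57BL/6J and CAST/EiJ mice, aged 18 to 20 months. No treatment is named in the labels. The 2 libraries form 1 group and are labelled biological replicates 1 and 2, with separate biosample records but 1 shared donor record. The spread between them may therefore be technical, and no comparison of conditions was possible.

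A miRNA is cut from a hairpin RNA into a mature strand that guides a silencing complex to messenger RNAs, mainly through the seed, bases 2 to 8 of the strand. Resting lymphocytes are rich in miR-150, granulocytes and their precursors in miR-223. NF-kB signalling switches on Mir155 and Mir146. In mice, miR-155 represses the signalling inhibitors Socs1 and Inpp5d, while miR-146a represses Traf6 and Irak1, which relay signals to NF-kB. The heart holds resident macrophages and fewer lymphocytes, and blood left in its vessels brings further leukocytes.

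The mature strands below, 1 for each gene, are shown because the seed is the main guide to targets. For Mir150 only the 3p strand is shown, which is usually the minor one, and miR-150-5p was not used here. They are RefSeq sequences (GRCm38.p6), 5′ to 3′, with the seed in capitals.
miR-155-5p: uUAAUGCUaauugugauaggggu
miR-150-3p: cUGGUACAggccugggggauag
miR-342-3p: uCUCACACagaaaucgcacccgu
miR-223-3p: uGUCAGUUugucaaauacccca
miR-146a-5p: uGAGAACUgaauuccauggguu
miR-146b-5p: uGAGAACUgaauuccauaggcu

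The comparison of seeds covered 11 mature strands of the 6 genes, with miR-150-3p alone for Mir150. Among the 1738 mature mouse strands in it, the seed GAGAACU occurred in miR-146a-5p and miR-146b-5p alone, and none of the other 9 member strands compared shared its seed with another strand. The seed of miR-150-5p was not compared. The deposited counts are given per hairpin gene, so the strands of 1 hairpin could not be told apart.

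The hairpins of Mir146 (chr11:43374397-43374461, minus strand) and Mir146b (chr19:46342762-46342870, plus strand) are shown because reads of the pair have to be told apart by few bases. Capitals mark both mature strands of each hairpin.
Mir146: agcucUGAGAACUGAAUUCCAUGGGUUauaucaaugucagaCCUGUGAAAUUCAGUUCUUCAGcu
Mir146b: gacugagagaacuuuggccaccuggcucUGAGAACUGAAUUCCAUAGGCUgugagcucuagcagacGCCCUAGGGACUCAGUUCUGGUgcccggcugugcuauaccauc

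The 5p strands are identical over their first 17 bases and differ at 2 of 22 positions, G18A and U21C, counted from the 5′ end with miR-146a-5p first. The hairpins share a longest stretch of 21 bases. The hairpins of Mir150, Mir342, Mir155 and Mir223 share at most 13 bases with any of the 2201 other annotated miRNA hairpins on the same strand. The counts leave out reads with several places of mapping, and these 4 genes have no annotated hairpin copy to which a whole mature strand could map.

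Replicate 1 held 3037063 reads in miRNA genes and replicate 2 held 5284446. Levels are reads per 1000000 reads in miRNA genes (CPM). Means carry the SD over the 2 libraries, and intervals are 95% intervals that cover counting error only. Heart markers were present, with the cardiomyocyte gene Mir208a at 7169 ± 2807 CPM and Mir499 at 5523 ± 50.4 CPM (SD, n = 2). The libraries stood apart in some markers of other cell types. The epithelial gene Mir205 had 7 reads in replicate 1 and 10372 in replicate 2, and the red blood cell gene Mir451a had 14883 and 5009. Not every marker of these cell types went the same way. Of 7 epithelial genes, 5 had a lower CPM in replicate 1, and of 3 red blood cell genes with reads, 1 did.

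The 6 genes were measured at levels spread over a wide range. They took 0.923% ± 0.102 (SD, n = 2) of the reads counted in miRNA genes. Replicate 1 gave 0.851% (Wilson interval 0.841 to 0.862) and replicate 2 gave 0.995% (0.987 to 1.00). Reads with several places of mapping, 40.7% of all reads in replicate 1 and 32.5% in replicate 2, are left out. How many of those came from miRNA genes was not tested, so shares and ranks hold for counted reads only. Mir155 and Mir150 led, Mir146 and Mir342 followed, Mir223 lay far below, and Mir146b was close to the limit of detection. At least 10 reads in each library were found for 5 of the 6. In bulk tissue, fewer cells of a type and less of a miRNA per cell cannot be told apart. The cells that made these reads, leukocytes or others, were not identified.

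**Figure D1:**
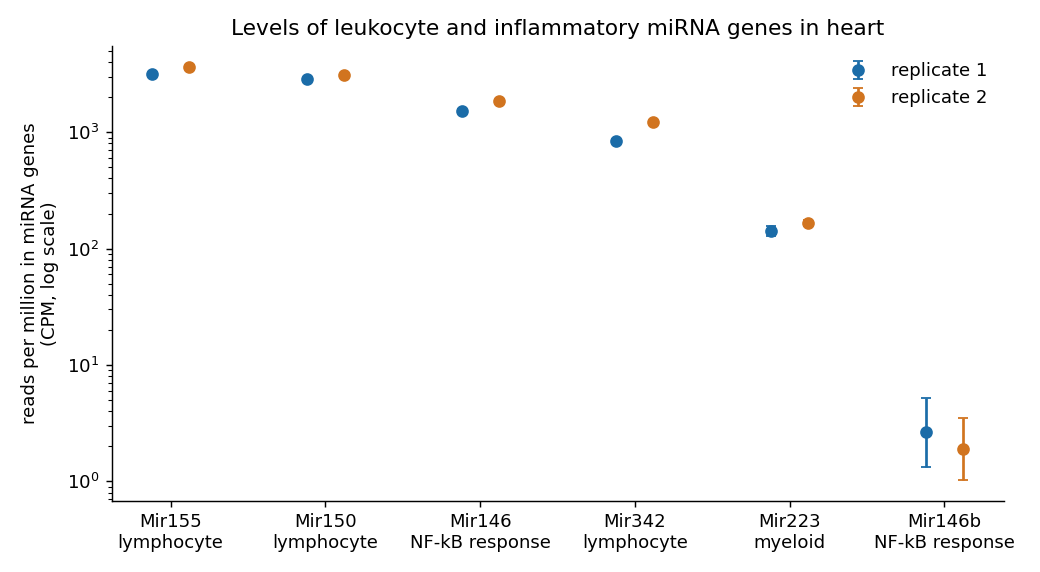
Level of each of the 6 genes in replicate 1 (blue) and replicate 2 (orange), in CPM on a log axis, with 95% Wilson intervals. The genes run from Mir155 at 3152 and 3608 CPM down to Mir146b at 2.63 and 1.89 CPM, in the same order in both libraries.

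Of the lymphocyte genes, Mir155 (ENSMUSG00000065397.1, chr16:84714140-84714204, plus strand, overlapping an exon of both transcripts of the long noncoding gene Mir155hg) had the highest level of the 6. It had 9572 reads in replicate 1 and 19067 in replicate 2, or 3152 and 3608 CPM. Its mean of 3380 ± 323 CPM (SD, n = 2) put it at rank 36 among all miRNA genes by the reads counted. Mir155 is low in resting lymphocytes and rises when B cells, T cells and macrophages are activated.

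Mir150 (ENSMUSG00000065495.1, chr7:45121757-45121821, plus strand, in no annotated gene and 96 bases from Gm45552) encodes a miRNA of mature B and T cells that represses Myb. It had 8634 reads in replicate 1 and 16461 in replicate 2, or 2843 and 3115 CPM. With a mean of 2979 ± 192 CPM (SD, n = 2), it stood at rank 39. The relative spread of Mir150 between the libraries was small beside that of Mir342.

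Mir342 (ENSMUSG00000065436.1, chr12:108658620-108658718, plus strand) lies in an intron of Evl, a gene of actin assembly that is expressed in lymphocytes. It had 2549 reads in replicate 1 and 6415 in replicate 2, or 839 and 1214 CPM. Its mean was 1027 ± 265 CPM (SD, n = 2), at rank 66. Together the lymphocyte genes took 0.683% of counted miRNA reads in replicate 1 (0.674 to 0.693) and 0.794% in replicate 2 (0.786 to 0.801).

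The myeloid gene Mir223 (ENSMUSG00000076066.1, chrX:96242817-96242926, plus strand, overlapping an exon of both transcripts of F630028O10Rik, annotated as antisense RNA) had 431 reads in replicate 1 and 875 in replicate 2. These counts are 142 CPM (Wilson interval 129 to 156) and 166 CPM (155 to 177). Its mean was 154 ± 16.7 CPM (SD, n = 2), at rank 126. In mice miR-223 restrains the growth of granulocyte precursors through Mef2c, and platelets carry it as well.

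Of the NF-kB genes, Mir146 (ENSMUSG00000065601.1, in no annotated gene, 11021 bases from Gm12148) was abundant and Mir146b (ENSMUSG00000070127.2, in an intron of Mfsd13a) was not. Mir146, the gene of miR-146a, had 4662 reads in replicate 1 and 9772 in replicate 2, or 1535 and 1849 CPM. Its mean was 1692 ± 222 CPM (SD, n = 2), at rank 51. Mir146b had 8 reads in replicate 1 and 10 in replicate 2, or 2.63 CPM (Wilson interval 1.33 to 5.20) and 1.89 CPM (1.03 to 3.48). The limit that a count of 0 allows, 3 reads, is 0.988 CPM in replicate 1 and 0.568 CPM in replicate 2.

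**Figure D2:**
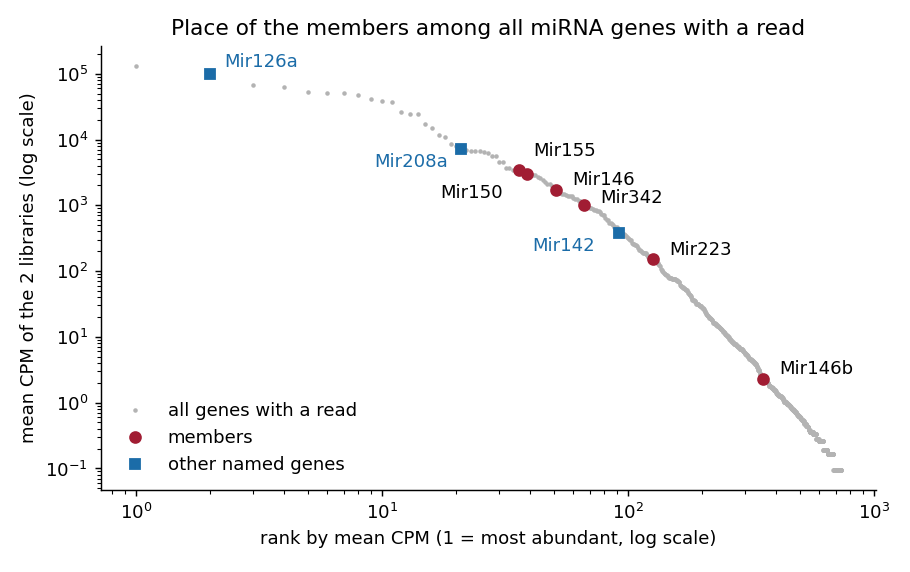
Mean CPM of every miRNA gene with a read against its rank, both on log axes, with the 6 genes in red and 3 other named genes as blue squares. Mir155, Mir150, Mir146 and Mir342 lie between ranks 36 and 66, Mir223 at rank 126 and Mir146b at rank 354.

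Because both NF-kB genes make a 5p strand with the same seed, their counts can be read as parts of 1 seed family. Mir146 exceeded Mir146b 583-fold in replicate 1 (exact interval 296 to 1351) and 977-fold in replicate 2 (531 to 2038). On the log2 scale the ratio averaged 9.56 ± 0.53 (SD, n = 2). The 2 intervals overlapped. Reads shorter than 18 bases from the 5′ ends of these strands would fit both genes, and such reads were not analysed here.

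For the order of levels within a library, 2 genes were taken as apart where both libraries gave the same order and the mean log2 ratio exceeded its SD. The order of counts was Mir155, Mir150, Mir146, Mir342, Mir223 and Mir146b in both libraries, which gives all 15 pairs the same order. The mean log2 ratio exceeded its SD in all 15 as well. With 2 libraries of the same order, that condition adds little. How evenly the libraries captured different miRNAs was not tested, and neither the SD nor the intervals cover it. The labels give a size range under 30, the length class of mature strands, so counts were not divided by hairpin length. Per base of hairpin the order was the same.

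The closest neighbours were Mir155 and Mir150. Mir155 over Mir150 was 1.11 in replicate 1 (exact interval 1.08 to 1.14) and 1.16 in replicate 2 (1.13 to 1.18). The mean log2 ratio of 0.18 ± 0.04 (SD, n = 2) was small but larger than the spread between the libraries. Ratios within libraries were not tested, since the smallest p that an exact sign-flip test of both libraries allows is 0.5.

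The next steps down the order were larger. Mir150 over Mir146 was 1.85 in replicate 1 (1.79 to 1.92) and 1.68 in replicate 2 (1.64 to 1.73). Mir146 over Mir342 was 1.83 in replicate 1 (1.74 to 1.92) and 1.52 in replicate 2 (1.48 to 1.57). Mir342 exceeded Mir223 by 5.91 times in replicate 1 (5.34 to 6.56) and by 7.33 times in replicate 2 (6.83 to 7.88). For these 3 ratios the intervals of the libraries did not overlap, though the order was the same.

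By role, the lymphocyte genes together exceeded the myeloid gene 48.2-fold in replicate 1 (43.8 to 53.1) and 47.9-fold in replicate 2 (44.8 to 51.3). This was the role ratio with the smallest spread, a mean log2 ratio of 5.586 ± 0.005 (SD, n = 2). The lymphocyte genes exceeded the NF-kB genes 4.44-fold in replicate 1 (4.31 to 4.59) and 4.29-fold in replicate 2 (4.19 to 4.38). The NF-kB genes, nearly all Mir146, exceeded the myeloid gene 10.8-fold in replicate 1 (9.82 to 12.0) and 11.2-fold in replicate 2 (10.4 to 12.0). Each of these ratios had intervals that overlapped between the libraries. Mir155 is known in activated lymphocytes and in macrophages alike, so these ratios compare genes by their listed role and not numbers of cells. NF-kB signalling also switches on Mir155, which held 9572 of 20755 lymphocyte reads in replicate 1 and 19067 of 41943 in replicate 2. Counting Mir155 with the NF-kB genes instead would put them above the lymphocyte genes in both libraries.

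Within the reads of the 6 genes, Mir155 took 37.0% (Wilson interval 36.4 to 37.6) in replicate 1 and 36.2% (35.8 to 36.7) in replicate 2. Mir150 took 33.4% (32.8 to 34.0) in replicate 1 and 31.3% (30.9 to 31.7) in replicate 2. Mir146 took 18.0% (17.6 to 18.5) in replicate 1 and 18.6% (18.2 to 18.9) in replicate 2. The intervals of Mir155 and those of Mir146 overlapped between the libraries, and those of Mir150 did not.

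Mir342 took 9.86% of these reads (9.50 to 10.2) in replicate 1 and 12.2% (11.9 to 12.5) in replicate 2. Mir223 took 1.67% (1.52 to 1.83) in replicate 1 and 1.66% (1.56 to 1.78) in replicate 2. Mir342 was thus a smaller part of the set in replicate 1, while the share of Mir223 differed by less than counting error. Each of the 4 ratios of Mir342 with Mir155, Mir150, Mir146 and Mir223 had intervals that did not overlap between the libraries. Among Mir155, Mir150, Mir146 and Mir223 themselves, intervals overlapped in 5 of 6 pairs, the exception being Mir150 over Mir146.

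**Figure D3:**
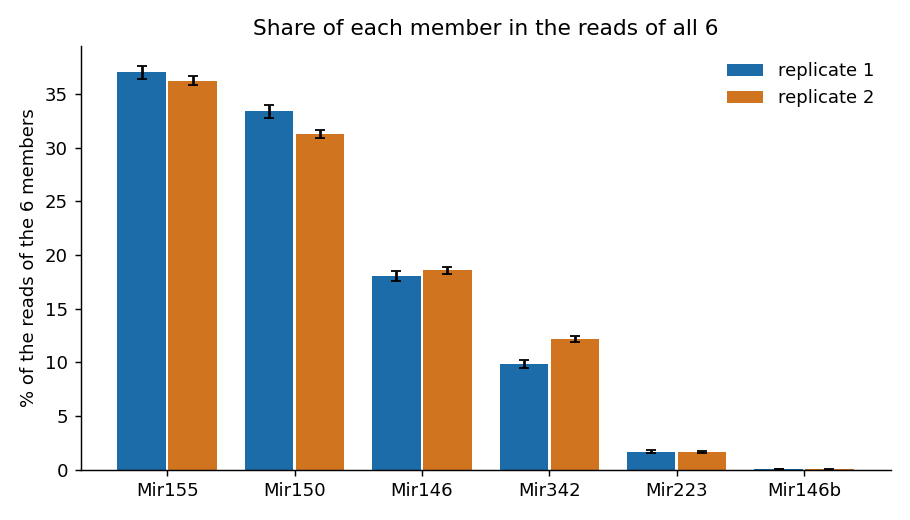
Share of each gene in the summed reads of all 6, in percent, in replicate 1 (blue) and replicate 2 (orange), with 95% Wilson intervals. Mir342 has 9.86% in replicate 1 and 12.2% in replicate 2, while Mir223 has 1.67% and 1.66%.

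Between the libraries, 5 of the 6 genes were lower in replicate 1 than in replicate 2 by more than counting error, and none was higher. The test was exact, binomial and two-sided, with the library totals as given, and its p was adjusted by Benjamini-Hochberg over the 424 miRNA genes whose reads summed to 10 or more. Of those genes, 52.8% were called at an adjusted p under 0.05, 21.9% as higher in replicate 1 and 30.9% as higher in replicate 2. The test detects smaller differences at higher counts. The 5 called genes were abundant, at ranks 36 to 126, while these shares cover all genes from 10 reads up. A call says that 2 libraries differ and nothing of conditions. The median log2 ratio of replicate 1 over replicate 2 was -0.21 over the 6 genes, beside -0.07 over all genes tested.

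Mir342 had the lowest ratio, with 839 CPM in replicate 1 and 1214 CPM in replicate 2. The log2 ratio was -0.53 (exact interval -0.60 to -0.47, adjusted p = 9.96e-58, exact binomial test). Mir146 followed at -0.27 (-0.32 to -0.22, adjusted p = 2.86e-25, exact binomial test). Both stayed lower in replicate 1, and called, when the 10 most abundant genes were left out of the totals, at -0.34 and -0.08.

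Mir155 had a log2 ratio of -0.20 (exact interval -0.23 to -0.16, adjusted p = 1.08e-26, exact binomial test). Mir223 was at -0.22 (-0.39 to -0.05, adjusted p = 0.0184, exact binomial test). Mir150 was at -0.13 (-0.17 to -0.09, adjusted p = 2.27e-11, exact binomial test). With the 10 most abundant genes left out of the totals, Mir155 and Mir223 lost their calls at -0.01 and -0.03, and Mir150 turned to 0.056 (adjusted p = 0.00801, exact binomial test). That scaling raised each ratio by 0.19, and under it 56.4% of all calls were higher in replicate 1, in place of 41.5%.

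Mir146b had a log2 ratio of 0.48 with a wide exact interval (-1.07 to 1.97, adjusted p = 0.602, exact binomial test). At 8 and 10 reads, a difference of the size seen in Mir342 was not detectable.

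A second test set the 6 genes against the spread common to all genes. The exact test of edgeR, which uses a common spread over all genes in this pair (a biological coefficient of variation of 40.5%), called none of the 6. It called 2.83% of the 424 genes. None of the 6 passed an unadjusted p of 0.05 in that test, where the lowest p was 0.541, for Mir342. That spread was estimated from the same pair of libraries, so the differences tested are part of it. The lack of calls therefore does not show that the 6 genes were alike in both libraries.

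**Figure D4:**
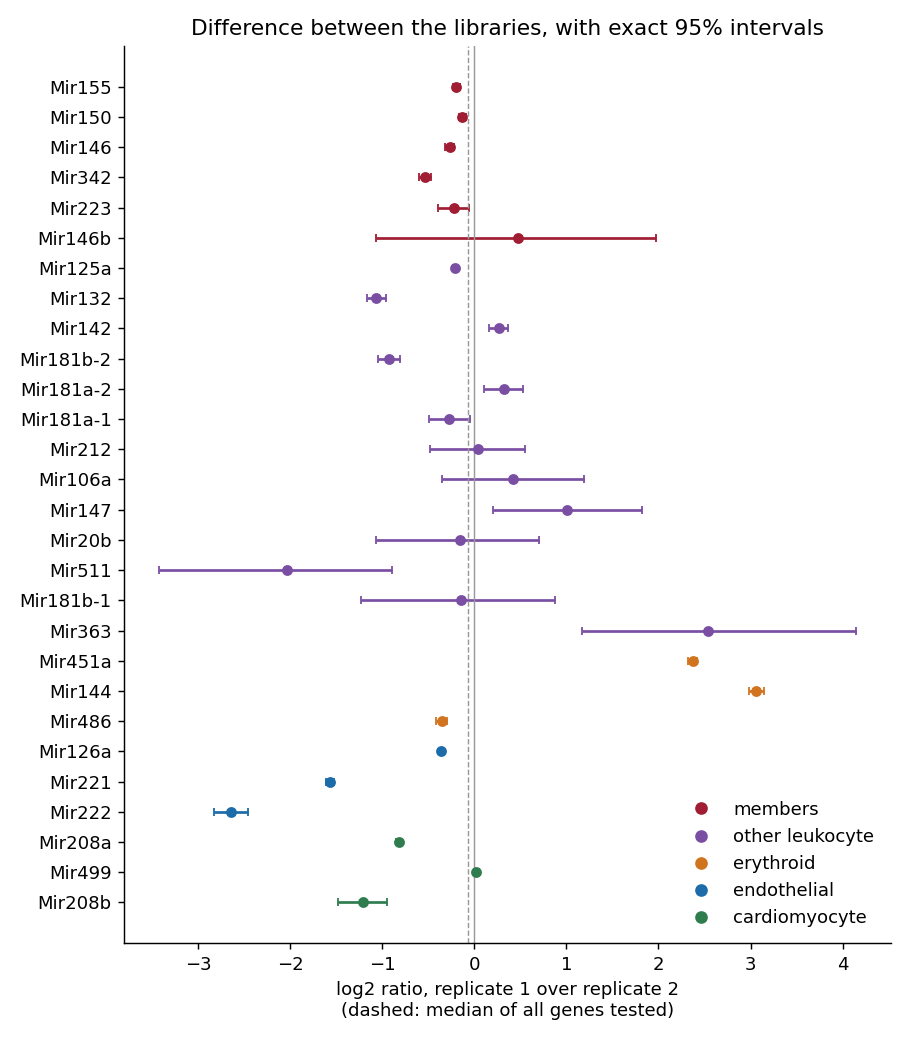
Log2 ratio of replicate 1 over replicate 2 for the 6 genes (red) and for tested genes of the other leukocyte, erythroid, endothelial and cardiomyocyte lists, with exact 95% intervals. From Mir155 to Mir223 the 5 abundant genes lie between -0.53 and -0.13, Mir142 lies at 0.27, and Mir451a and Mir144 lie at 2.37 and 3.06.

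Markers of red blood cells differed the other way. The erythroid list of 4 matched genes (Mir451a, Mir144, Mir486 and Mir451b) took 0.820% of reads in replicate 1 and 0.254% in replicate 2, and Mir451b had no reads. Of its 3 tested genes, 2 were called higher in replicate 1 and 1 in replicate 2. Over all genes tested, these shares were 21.9% and 30.9%. Mir451a had a log2 ratio of 2.37 (exact interval 2.32 to 2.42) and Mir144 one of 3.06 (2.98 to 3.15). Mir486, which muscle also makes, was at -0.35. Mir155 over Mir451a was 0.643 in replicate 1 (0.627 to 0.660) and 3.81 in replicate 2 (3.69 to 3.93). Mir223 over Mir451a was 0.0290 in replicate 1 (0.0263 to 0.0319) and 0.175 in replicate 2 (0.162 to 0.188). The part of blood content in the levels of the 6 genes was not tested.

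Genes of other cell types also differed between the libraries. The 4 endothelial genes took 8.68% of reads in replicate 1 and 11.5% in replicate 2, and all 3 that were tested were lower in replicate 1. The 3 cardiomyocyte genes took 1.08% in replicate 1 and 1.48% in replicate 2, and 2 of them were lower in replicate 1. The endothelial genes Mir126a, Mir221 and Mir222 had log2 ratios of -0.37, -1.57 and -2.64. The cardiomyocyte genes Mir208a and Mir208b were at -0.82 and -1.21, while Mir499, also of cardiomyocytes, was at 0.02. Mir150 over Mir208a was 0.548 in replicate 1 (0.534 to 0.563) and 0.340 in replicate 2 (0.334 to 0.346). Mir150 over Mir499 was 0.511 in replicate 1 (0.498 to 0.525) and 0.568 in replicate 2 (0.557 to 0.579). Set against cardiomyocyte genes, Mir150 was thus higher in replicate 1 by Mir208a and lower by Mir499. The epithelial list took 0.0298% of reads in replicate 1 and 0.387% in replicate 2. Of its 7 genes, 2 were called higher in replicate 1 and 4 in replicate 2. Beside these lists, 21.9% of all 424 genes tested were called higher in replicate 1 and 30.9% in replicate 2. The part of any of these cell types in the levels of the 6 genes was not tested.

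The wider set of leukocyte miRNA genes held 15 matched genes, of which 11 had at least 10 reads in each library. Of its 13 tested genes, 4 were higher in replicate 1, 5 were higher in replicate 2 and 4 were not called, for a median log2 ratio of -0.14. This share of calls and this median lie beside 52.8% and -0.07 over all genes tested. Together the 15 genes took 0.867% of reads in replicate 1 and 1.04% in replicate 2, most of it from Mir125a, which is made in many cell types besides blood stem cells.

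Mir142, which is made in nearly all white blood cells, had 1277 reads in replicate 1 and 1848 in replicate 2, or 420 and 350 CPM. It was higher in replicate 1, with a log2 ratio of 0.27 (exact interval 0.16 to 0.37, adjusted p = 1.73e-06, exact binomial test). Its interval did not overlap with that of Mir155, Mir150, Mir146, Mir342 or Mir223. Mir155 exceeded Mir142 7.50-fold in replicate 1 (7.07 to 7.95) and 10.3-fold in replicate 2 (9.84 to 10.8). Mir223 over Mir142 was 0.338 in replicate 1 (0.302 to 0.377) and 0.473 in replicate 2 (0.436 to 0.513). Mir142b, annotated over Mir142 on the opposite strand, had no sense reads in either library.

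Macrophage genes of that list were scarce. Mir147, which mouse macrophages switch on after Toll-like receptor signals, had counts of 30 in replicate 1 and 26 in replicate 2. Its log2 ratio was 1.01 (exact interval 0.20 to 1.82). Mir511, from the gene of the macrophage mannose receptor, had counts of 7 in replicate 1 and 50 in replicate 2. Its log2 ratio was -2.04 (-3.42 to -0.89). Both were called by the exact binomial test, in opposite directions.

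Of the 4 listed miR-181 genes, known from lymphocyte development and made in other tissues too, Mir181b-2 had the most reads. It had a log2 ratio of -0.93 and 791 reads in replicate 1, against 2618 in replicate 2. Mir181a-2 was at 0.32 with 316 and 441 reads, and Mir181a-1 at -0.27 with 247 and 519, while Mir181b-1 had 13 and 25 reads and was not called. Mir132 was at -1.07 with 969 and 3531 reads, and Mir212, from the same locus, at 0.04 with 52 and 88. Of the cluster on chromosome X, Mir106a had 27 and 35 reads, Mir20b 18 and 35, Mir363 20 and 6, and Mir18b none, and of these Mir363 alone was called. Genes of the miR-181 family and of this cluster have near copies, so reads with several places of mapping may be missing from their counts.

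Some genes outside these lists had nearly the same levels as the 6. Among 1168 other genes with a name starting with Mir, the nearest was taken by distance in log2(CPM + 1) over the 2 libraries. It was Mir320 for Mir155 (distance 0.09), Mir423 for Mir150 (0.22), Mirlet7c-2 for Mir146 (0.14) and Mir15a for Mir342 (0.08). Mir1843a was nearest to Mir223 (0.03) and Mir6968 to Mir146b (0.09). With 2 libraries the distance reflects the level far more than a pattern.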

How the data were processed

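The deposited tables, 1 for each library, hold raw counts by miRNA gene. Per the labels, total RNA was used and the build is mm10. The annotation was GENCODE M21, as a text file deposited with the tables says. The sources used here name no aligner, counter or trimming. Each table has 3 count columns (either strand, and each strand alone) and 4 summary lines, which stayed out of library sizes and tests. The sense counts, the single-strand column with more reads in miRNA genes, were used. Reads mapped to several places (40.7% of all reads in replicate 1, 32.5% in replicate 2), unmapped reads (19.4% and 34.3%) and reads outside miRNA genes (7.79% and 6.27%) count for no gene.

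All 2202 gene IDs matched GENCODE. Intervals are Wilson for shares and Clopper-Pearson for ratios of counts, at 95%, and cover counting error only, since no molecular identifiers are recorded. With 1 library on each side edgeR's quasi-likelihood test could not be fitted, so an exact binomial test with Benjamini-Hochberg adjustment was used, and edgeR's exact test with the common dispersion as an alternative. Tools were Python 3.11.15, scipy 1.17.1, statsmodels 0.14.6, R 4.3.3, edgeR 4.0.16 and DESeq2 1.42.0 (size factors only). Named genes were the 6 members, the other leukocyte list, markers of red blood cells, endothelium, cardiomyocytes and epithelium, and the nearest gene to each member. Members and lists were chosen with earlier results of these data known. Of the lists, Mir142a and Mir486b matched no gene by name.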

Additional observations from a re-analysis of the deposited data

How the results depend on the processing

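Directions and calls of the 6 genes between the libraries were the same with TMM scaling, DESeq2 size factors, no filter on reads and the column for either strand, and for the 5 genes left with at least 100 reads. With the 10 most abundant genes left out of the totals, 3 of the 6 were called, and the log2 ratio of Mir150 turned to 0.056. Under that setting, 119 of all 414 genes tested were called higher in replicate 1 and 92 higher in replicate 2. In the exact test of edgeR 0 of the 6 were called (0 at an unadjusted p under 0.05). Of the 13 other leukocyte genes it called 0 (1 unadjusted), and the binomial test called 9. Over all 424 genes tested, the edgeR test called 2.83% and the binomial test 52.8%.

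Levels depend on the total they are divided by, which moves all 6 genes alike within a library. Without the 10 most abundant genes in the total, Mir155, Mir150, Mir146, Mir342, Mir223 and Mir146b had 9414, 8309, 4705, 2838, 428 and 6.40 CPM, and together 2.57% of reads. Per 1000000 mapped reads they had 1368, 1205, 685, 416, 62.2 and 0.913, and together 0.374%. In the column for either strand they had 4557, 4016, 2281, 1384, 207 and 3.05 CPM, and together 1.24%. Counts of the 6 genes themselves were the same in that column, and its total is smaller. Divided by hairpin length, the log2 ratio of Mir146 over Mir342 was 1.35 in place of 0.74.

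With either library left out, the share of the 6 genes ranged from 0.851% to 0.995%. A binomial test between the libraries could not leave one out. No paired analysis was possible because there is 1 group. Depth limits Mir146b most.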
